A study of Mus musculus with 4 samples.

Results

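The transcripts of 10 enzymes of glucose breakdown were followed in the mouse hippocampus after tibial fracture surgery. They are hexokinase 1 (Hk1), glucose-6-phosphate isomerase (Gpi1), muscle-type phosphofructokinase (Pfkm), the aldolases Aldoa and Aldoc, triosephosphate isomerase (Tpi1), glyceraldehyde-3-phosphate dehydrogenase (Gapdh), pyruvate kinase (Pkm) and the lactate dehydrogenases Ldha and Ldhb. They were taken by gene name from a count table of 29300 genes, in which 11 rows carried the 10 names. All 10 genes passed the filter on low counts and were among the 17144 genes tested. The other row named Aldoa (ENSMUSG00000114515) was counted 11 and 8 times in control animals and 4 and 5 times after surgery, and it did not pass the filter.

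The animals were male C57BL/6 mice aged 7 to 8 months, and the hippocampus was taken on day 1 after the operation. The 2 control mice received isoflurane anesthesia and tramadol analgesia only. The 2 surgery mice received the same anesthesia and analgesia together with an open fracture of the tibial shaft fixed by an intramedullary nail, a model of perioperative neurocognitive disorder (PND). The comparison therefore asks what the fracture adds to anesthesia and analgesia, and no untreated mice were analysed here. Polyadenylated RNA was sequenced from each mouse, giving 15763432 to 18573386 counted reads per library.

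Glycolysis turns glucose into pyruvate in the cytosol, with a small yield of ATP and NADH. Lactate dehydrogenase then interconverts pyruvate and lactate, and it is a tetramer whose subunits are made by Ldha and Ldhb. In the brain, glycolysis is held to be most active in astrocytes, which can pass lactate to neurons. Aldoc is commonly used as an astrocyte marker, whereas Aldoa is made in most cells.

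The upstream sequences of the lactate dehydrogenase pair are shown because Ldha is a textbook target of hypoxia-inducible factor, whose response element has the core ACGTG or GCGTG. The 250 bases before a RefSeq transcript start (build GRCm38.p6, 5′ to 3′ along the gene) follow, with every ACGTG or GCGTG on either strand in capitals. The Ldha window is chr7:46845554-46845803 on the plus strand and the Ldhb window is chr6:142507958-142508207 on the minus strand. Ldha has another RefSeq window, chr7:46846832-46847081, and the window with the most core matches is shown. Both Ldha windows lie inside the gene as the deposited table bounds it. Neither window shown holds a base annotated as an exon in GENCODE M21.
Ldha: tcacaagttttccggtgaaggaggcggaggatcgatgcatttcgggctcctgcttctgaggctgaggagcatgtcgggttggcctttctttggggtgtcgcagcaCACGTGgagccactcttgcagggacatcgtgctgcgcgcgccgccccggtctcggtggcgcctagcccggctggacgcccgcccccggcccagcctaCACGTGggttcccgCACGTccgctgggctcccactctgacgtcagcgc
Ldhb: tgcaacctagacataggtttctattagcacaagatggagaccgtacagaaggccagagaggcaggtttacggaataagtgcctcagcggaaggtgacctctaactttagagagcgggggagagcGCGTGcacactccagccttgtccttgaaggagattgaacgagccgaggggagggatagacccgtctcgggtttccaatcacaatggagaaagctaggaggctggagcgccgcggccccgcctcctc
The Ldha window held 5 matches to a core, CACGTG being read on both strands and so counted on each, together with 2 GC boxes (GGGCGG) and a cyclic AMP response element (TGACGTCA). The Ldhb window held 1 core match and none of the other letters searched. RefSeq gave 19 such windows for the 10 enzymes. A core in either form was present in 13 of the 19 windows, which belong to 8 genes, all but Gpi1 and Tpi1, compared with 38.6% of all 32851 windows. Windows of Aldoa and of Pfkm overlap one another, so a match can be counted more than once. ACGTG alone was present in 6 of 19 windows (16.6% of all windows), and GCGTG alone in 8 of 19 (28.2%). A GC box was present in 7 of 19 windows, compared with 32.7% of all. The cyclic AMP response element was present in 1 of 19 (1.55% of all) and the consensus NRF-1 site in 0 of 19 (0.782% of all). Of the 19 windows 8 hold no base annotated as an exon. These are matches of letters, and binding was not measured.

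All 10 transcripts were lower in the hippocampus of the surgery mice, by 21.9% for Pfkm to 34.9% for Gapdh. Each passed the test over all genes (edgeR's quasi-likelihood F test, Benjamini-Hochberg adjusted p of 0.0045 to 0.010), and in each both surgery mice lay below both control mice. Over all genes tested, 12.8% were lower by the same test and 13.1% higher, and 32.2% had both surgery mice below both control mice and 33.2% had both above. The median log2 fold change of the 10 was -0.42, a fold change of 0.749, beside 0.01 over all genes tested. Only Gapdh also lay at or below a fold change of 0.67, a limit that 2.25% of all genes passed together with the test (6.75% were higher at a fold change of at least 1.5). Ldhb was nearest to the limit on the other side, with a fold change of 0.684. The count past this limit was 0 without control replicate 2, 2 without surgery replicate 1 and 3 without control replicate 1. Levels are given as CPM, a gene's count scaled by library total and TMM factor so that all libraries have the same size (TMM corrects the totals for differences in RNA composition). Whether fewer cells of a type or less RNA per cell underlies a lower level cannot be told apart in a whole tissue.

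**Figure D1:**
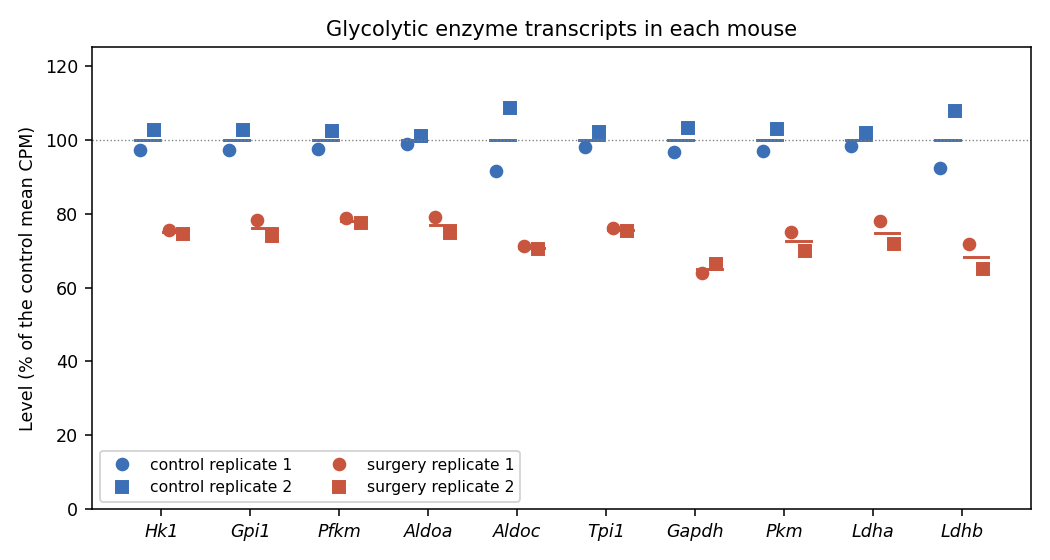
Level of each transcript in each mouse as a percentage of the mean CPM of the 2 control mice. Circles and squares mark replicates 1 and 2, and short lines mark group means. For all 10 enzymes both surgery mice lie below both control mice, with Gapdh lowest at 34.9% below the control mean.

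Hk1, which phosphorylates glucose on its entry into the cell and is the main hexokinase of brain, lies at chr10:62268855-62379908 on the minus strand (mm10, as are all gene positions here). Hk1 stood at 537 and 566 CPM without surgery and at 416 and 410.3 CPM after it. The surgery mice were close together and the groups did not overlap. The mean went from 551 ± 20.6 to 413 ± 4.05 CPM (SD, n = 2 each), a log2 fold change of -0.42 (SE 0.058, adjusted p = 0.0059 by edgeR's quasi-likelihood test). Gpi1, which converts glucose-6-phosphate to fructose-6-phosphate (chr7:34201330-34230336, minus strand), was at 624 and 658 CPM in control mice and at 501 and 474 CPM in surgery mice. The higher surgery mouse was well below the lower control mouse, and Gpi1 fell by 0.39 on the log2 scale (SE 0.062, adjusted p = 0.0073 by edgeR). Pfkm encodes a subunit of the enzyme that commits the sugar to glycolysis (chr15:98092589-98132447, plus strand). It was at 445 and 467 CPM in control mice and 359 and 353 CPM in surgery mice, and its log2 fold change of -0.36 (SE 0.057, adjusted p = 0.0079 by edgeR) was the smallest in size among the 10. Aldoa was smaller in size with offsets for length and GC content (-0.05 beside -0.12) and without surgery replicate 2 (-0.333 beside -0.339).

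The aldolases split the 6-carbon sugar into triose phosphates. Aldoa (chr7:126795234-126808905, minus strand) had the highest level of the 10, also per kilobase, with 1485 and 1518 CPM in control mice and 1188 and 1123 CPM in surgery mice. Its mean went from 1501 ± 22.9 to 1155 ± 45.4 CPM, a log2 fold change of -0.38 (SE 0.060, adjusted p = 0.0076 by edgeR). Aldoc (chr11:78322968-78327781, plus strand) was at 1059 and 1255 CPM in control mice and at 824 and 814 CPM in surgery mice. Its control mice differed more from each other than those of any other enzyme here, yet the groups did not overlap. Aldoc fell by 0.50 on the log2 scale (SE 0.087, adjusted p = 0.010 by edgeR). Tpi1, which interconverts the triose phosphates (chr6:124810586-124814296, minus strand), was at 544 and 567 CPM in control mice and at 422 and 418 CPM in surgery mice. Its groups were each tight, and its log2 fold change was -0.40 (SE 0.056, adjusted p = 0.0060 by edgeR).

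Gapdh, which oxidizes glyceraldehyde-3-phosphate and makes NADH, is widely used as a reference gene in quantitative PCR and immunoblots. It lies at chr6:125161715-125166467 on the minus strand. It was at 316 and 338 CPM in control mice and at 209 and 217 CPM in surgery mice. The mean went from 327 ± 15.2 to 213 ± 5.62 CPM, and the log2 fold change of -0.62 (SE 0.062, adjusted p = 0.0045 by edgeR) was the largest in size of the 10. This rank was not kept in every fit. With offsets for length and GC content Ldhb was at -0.37 and Gapdh at -0.36, and without surgery replicate 1 they were at -0.64 and -0.61. Pkm, which makes pyruvate and ATP (chr9:59656368-59679375, plus strand), was at 1178 and 1252 CPM in control mice and 913 and 851 CPM in surgery mice. It fell by 0.46 on the log2 scale (SE 0.066, adjusted p = 0.0061 by edgeR). The counts are per gene, so the M1 and M2 splice forms of Pkm were not told apart.

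Ldha, the subunit prevalent in muscle and in tissues that make lactate (chr7:46841475-46855627, plus strand), was at 274 and 284 CPM in control mice and 218 and 199.8 CPM in surgery mice. It fell by 0.42 on the log2 scale (SE 0.066, adjusted p = 0.0076 by edgeR). Ldhb, the subunit prevalent in heart (chr6:142490249-142507957, minus strand), was at 388 and 453 CPM in control mice and at 302 and 273 CPM in surgery mice. Both groups were spread, without overlap, and Ldhb fell by 0.55 (SE 0.091, adjusted p = 0.0087 by edgeR). Both subunits were thus lower. Their upstream windows shown above hold 5 and 1 core matches, and the other Ldha window holds 1.

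Taken relative to its control mean, the median enzyme stood at -0.04 and 0.04 on the log2 scale in control replicates 1 and 2, and at -0.40 and -0.46 in surgery replicates 1 and 2. Control replicate 2 was above control replicate 1 in every one of the 10, and surgery replicate 2 was below surgery replicate 1 in all but Gapdh. Together the 10 enzymes took 0.672% and 0.724% of the counted reads of the control mice and 0.541% and 0.523% of those of the surgery mice. The lowest count behind any of these values was 3328, for Gapdh in surgery replicate 1.

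Levels per kilobase of exon put the enzymes in another order than counts do. In control mice Aldoa stood at 515.8 ± 7.88 CPM per kilobase, Aldoc at 354.7 ± 42.5, Ldhb at 267.9 ± 29.3 and Pkm at 242.9 ± 10.4. The ranges of the control mice overlapped for Ldhb and Pkm, so these neighbors were not separated. Tpi1 followed at 201.7, Pfkm at 137 and Gpi1 at 99.4 CPM per kilobase. Ldha at 84.2 ± 2.14 and Gapdh at 79.1 ± 3.67 differed by little more than their spread, and Hk1 was lowest at 64.6 ± 2.42. All 10 were deeply counted, each with a higher mean CPM than at least 95.8% of the genes tested. In surgery mice Aldoa was still highest, at 396.9 ± 15.6 CPM per kilobase, while Hk1 at 48.4 ± 0.474 and Gapdh at 51.5 ± 1.36 were lowest. Per kilobase of the longest transcript the order in control mice was Aldoa, Pkm, Aldoc, Tpi1, Ldhb, Gpi1, Pfkm, Ldha, Hk1 and Gapdh. Aldoa was highest, and Hk1 and Gapdh lowest, by both measures, while Pkm and others changed place.

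The ratio of isozymes was compared within each library, where the scaling of the library cancels. Ldha over Ldhb, per kilobase, was 0.335 and 0.297 in control mice and 0.342 and 0.347 in surgery mice. The log2 ratio was 0.13 higher in surgery mice and the groups did not overlap, but the difference was close to the SD of the control mice (0.121). Without control replicate 2 it was 0.04, and without control replicate 1 it was 0.21. The exact two-sided permutation test gave p = 0.333, the smallest value that 2 against 2 mice allow. Aldoa over Aldoc was 1.57 and 1.35 in control mice and 1.62 and 1.55 in surgery mice, with overlapping groups and a log2 difference of 0.11 (SD of control mice 0.151, exact permutation p = 0.667). Without control replicate 2 that difference was 0.0081, and without control replicate 1 it was 0.22. The ratios themselves depend on the lengths used, and with the longest transcript of each gene Ldha over Ldhb was 0.507 and 0.450 in control mice and Aldoa over Aldoc was 2.52 and 2.17, while the differences between groups were the same. With offsets for length and GC content in the fit, Aldoa and Aldoc were further apart, at -0.05 and -0.29, and Ldha and Ldhb were at -0.27 and -0.37. With 2 mice per group this test could not have passed 0.05 for any shift, so the ratios are given as a description.

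The lower levels stood beside a trend with base composition. Over the 17120 tested genes with a GC value, the log2 fold change had a Spearman correlation of -0.64 with the GC content of the gene's transcripts. Genes are not independent replicates, and all of these points come from the same 4 libraries. The transcripts of the 10 enzymes had GC contents of 51.8% (Ldha) to 57.3% (Aldoa), all above the median of 49.97% over tested genes. Smooth curves of read count on length and GC content were then fitted to every library and entered into the edgeR fit as offsets. With these, all 10 remained below 0, 8 had an unadjusted p under 0.05, and only Gapdh passed the test. Its log2 fold change was then -0.36 (SE 0.061, adjusted p = 0.0458 by edgeR), and 0.999% of all genes were lower and 1.38% higher in that fit. Ldhb was at -0.37 (SE 0.085, adjusted p = 0.0776) and Ldha at -0.27 (SE 0.060, adjusted p = 0.0696). Aldoc was at -0.29, Pkm and Hk1 at -0.19 and -0.18, Tpi1 at -0.17, Gpi1 at -0.15 and Pfkm at -0.12, with adjusted p between 0.113 and 0.247. Aldoa, with the highest GC content, was nearest to 0, at -0.05 (adjusted p = 0.676). The median of the 10 was -0.19 in that fit. The part of this trend in the lower enzyme levels was not tested.

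**Figure D2:**
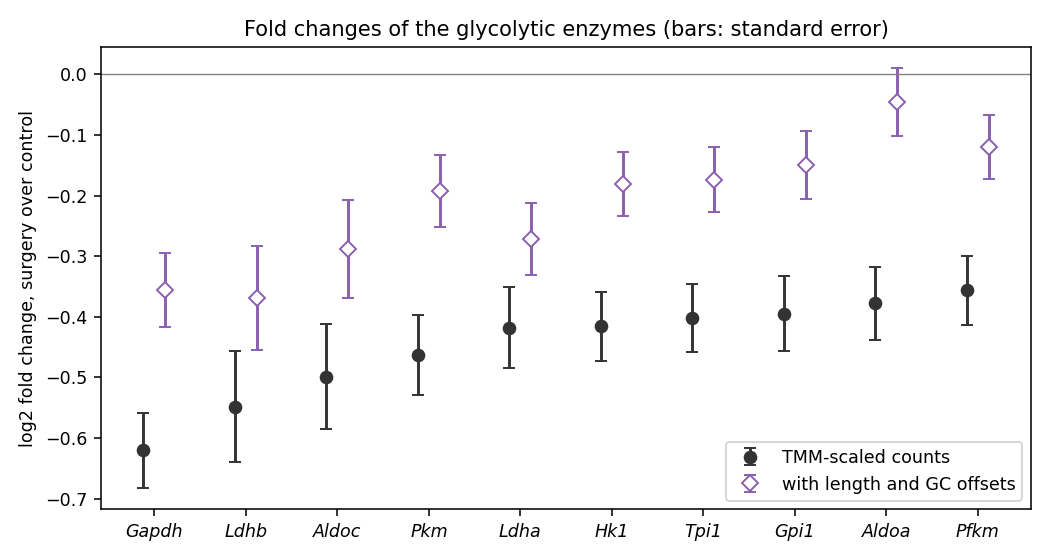
Log2 fold change of each enzyme, surgery over control, with its standard error, from the TMM-scaled counts (filled circles) and with length and GC offsets (open diamonds). The circles run from -0.62 (Gapdh) to -0.36 (Pfkm), and the diamonds are nearer to 0 for every enzyme, with Aldoa at -0.05.

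**Figure D3:**
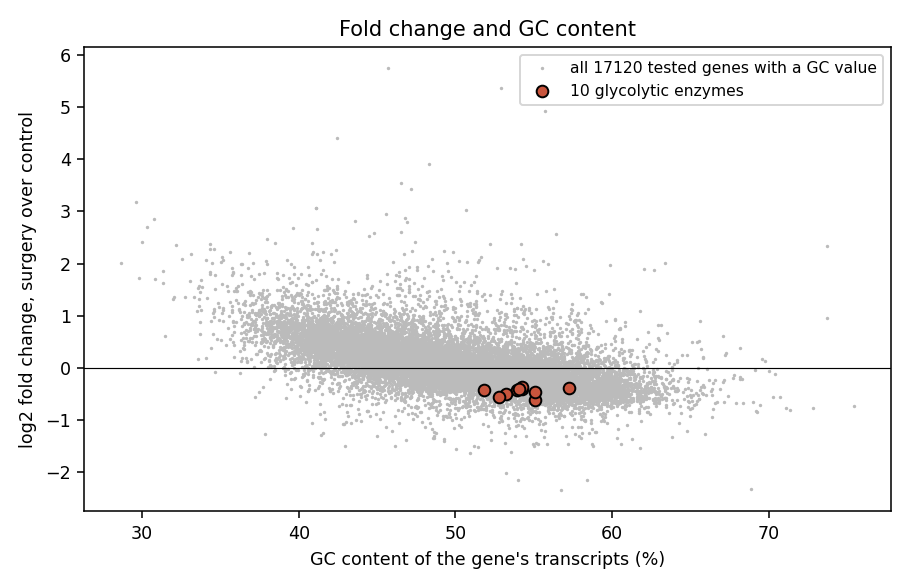
Log2 fold change, surgery over control, against the GC content of the gene's transcripts in percent, for 17120 tested genes (grey) and the 10 enzymes (red). Fold changes fall with GC content, and the enzymes lie between 51.8% and 57.3% GC, below 0.

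The Gapdh count depends on how reads were assigned among copies. Of the 75-nucleotide windows of its transcripts, 22.6% also occur in 121 other genes, of which 114 are pseudogenes. The pseudogene copies in the table held 5884 and 6264 reads in control mice and 4135 and 3817 in surgery mice, about as many as Gapdh itself (50.4% to 55.4% of the reads of Gapdh and copies together). Most of these fell on a pair of processed pseudogenes. Gm7336 (chr7:51746647-51747878, plus strand) had 2943 and 2948 reads in control mice and 2018 and 1837 in surgery mice, a log2 fold change of -0.50 (SE 0.087, adjusted p = 0.010 by edgeR). Gm5559 (chr5:95861714-95862715, plus strand) had 2460 and 2775 reads in control mice and 1695 and 1583 in surgery mice, a log2 fold change of -0.56 (SE 0.081, adjusted p = 0.0064 by edgeR). With the copies added to Gapdh the log2 fold change was -0.55 (SE 0.059, adjusted p = 0.0045 by edgeR), which no longer met the fold limit. The level of Gapdh, and with it its low rank per kilobase, is uncertain to this extent.

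**Figure D4:**
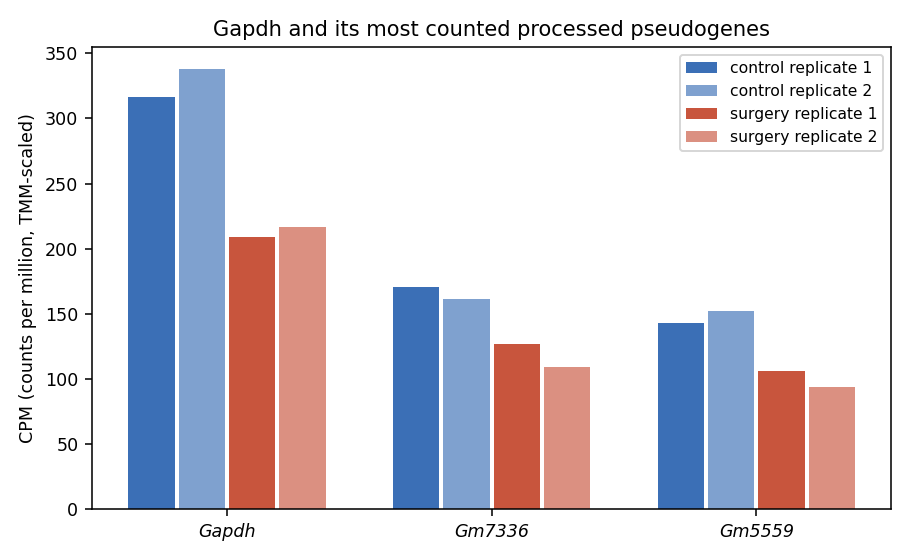
TMM-scaled CPM of Gapdh and of its most counted processed pseudogenes Gm7336 and Gm5559 in each mouse. All 3 are lower in both surgery mice than in both control mice, and each pseudogene stands at less than the Gapdh level.

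For the other enzymes the pseudogene copies held at most 0.72% of the reads of gene and copies, and adding them left each call as it was. Exons of several also overlap other genes. The overlap was 15.3% of the exon bases of Pkm with Gm49759 on the same strand, 11.5% of Gpi1 with Gm26762 on the opposite strand and 10.2% of Pfkm with Gm26513 on the same strand. Gm49759 had 320 and 331 reads in control mice and 350 and 363 in surgery mice, far fewer than Pkm, with a log2 fold change of 0.24 (adjusted p = 0.13 by edgeR). Use of strand in the counting was not given in the sources used here, so reads of Gpi1 and Gm26762 in the shared part could not be told apart.

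Other genes of glucose metabolism were read from lists that name 83 genes, of which 78 were in the table and 75 were tested. Of the 75, 22 were lower, 6 were higher and 47 did not pass the test, and the median log2 fold change was -0.17. The shares over all genes tested, 12.8% lower and 13.1% higher, are the background against which the counts of each list are read. For DESeq2's test the shares were 7.11% lower and 5.81% higher. The count of the lists was 28 in all, and it was 16 without control replicate 2, a fit in which 6.75% of all genes were lower and 6.72% higher. With the length and GC offsets, 4 of the 75 passed the test (Pgk1, Pdha1, Mpc2 and Mdh1), all of them lower.

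Among the other enzymes of glycolysis, 4 of 19 tested were lower and 15 did not pass the test. Pfkl, the liver-type phosphofructokinase, was at 355 and 354.5 CPM in control mice and 247 and 229 CPM in surgery mice, and it fell by 0.58 on the log2 scale (SE 0.062, adjusted p = 0.0045 by edgeR). Its platelet-type isozyme Pfkp was at 307 and 326 CPM in control mice and 300.0 and 287 CPM in surgery mice, with a log2 fold change of -0.11 (adjusted p = 0.24). The phosphofructokinase isozymes thus had unlike values, -0.58, -0.36 for Pfkm and -0.11, though a difference between them was not tested, and with the offsets they were at -0.24, -0.12 and -0.11. The enolases Eno1, found in most cells, and Eno2, the neuronal form, fell by 0.51 and 0.35 (adjusted p = 0.0066 and 0.0070 by edgeR). With the offsets Eno1 was at -0.26 and Eno2 at -0.07, and neither passed (adjusted p = 0.099 and 0.50). Phosphoglycerate kinase Pgk1 fell by 0.41 (adjusted p = 0.0071) and had the same log2 fold change, -0.41, with the offsets (adjusted p = 0.035). Parts of Eno1 (23.0% of windows, with 6 genes) and Pgk1 (52.8%, with 4 genes) are shared with other genes, so these values are uncertain in the same way as that of Gapdh. The same holds for Eno1b (80.6%, with 5 genes), Pgam1 (34.9%, with 2 genes) and Ldhd (39.25%, with 1 gene), whose values follow.

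The mutases did not pass the test. Pgam1 was at -0.16 (adjusted p = 0.091), Bpgm at -0.26 (0.079) and Pgam2 at -0.30 (0.27), and the enolases Eno1b and Eno3 were at -0.17 and -0.21. The enolase Eno4 was at 0.46 (adjusted p = 0.13), the highest value of the list, with both surgery mice above both control mice. The hexokinase genes Hk2, Hkdc1 and Hk3 also did not pass, with log2 fold changes of -0.35, -0.39 and -0.19. The testis form Gapdhs (0.03) and the D-lactate dehydrogenase Ldhd (-0.24) did not pass either. Pklr, the pyruvate kinase of liver and red cells, had only 2 to 4 counts per mouse and was not tested. None of the 5 phosphofructokinase-2 regulators, which set the level of the main activator of phosphofructokinase, passed edgeR's or DESeq2's test in either direction (median 0.08). At an unadjusted p under 0.05 by edgeR, 1 of them was higher and 1 lower.

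Among 8 genes of glucose and lactate transport, 2 were higher and 2 lower. The higher ones were the monocarboxylate transporter genes Slc16a1 and Slc16a7, which carry lactate and pyruvate across the membrane, Slc16a7 from 22.6 ± 3.38 to 43.3 ± 6.13 CPM (log2 fold change 0.94, SE 0.145, adjusted p = 0.0071 by edgeR) and Slc16a1 from 25.7 ± 0.357 to 44.9 ± 5.89 CPM (0.81, SE 0.112, adjusted p = 0.0060 by edgeR). With the offsets they were at 0.40 and 0.46 and did not pass (adjusted p = 0.17 and 0.098). Bsg, a chaperone of the Slc16a1 product on its way to the membrane, fell by 0.42 (adjusted p = 0.045), and so did the glucose transporter gene Slc2a8 (adjusted p = 0.040). With the offsets Bsg was at -0.13 (adjusted p = 0.56) and Slc2a8 at 0.02 (adjusted p = 0.95), and DESeq2's test without offsets called 1 gene of the list lower. The main glucose transporters of the blood-brain barrier and of neurons, Slc2a1 at -0.30 and Slc2a3 at 0.17, did not pass the test (adjusted p = 0.35 and 0.13).

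In the entry of pyruvate into mitochondria, 3 of 14 genes were lower and 2 higher. Mpc1 and Mpc2 encode the subunits of the mitochondrial pyruvate carrier and had opposite signs. Mpc1 rose from 8.74 to 14.2 CPM (log2 fold change 0.70, adjusted p = 0.014), while Mpc2 fell by 0.33 (adjusted p = 0.023). With the offsets Mpc1 was at 0.59 and did not pass (adjusted p = 0.072), and Mpc2 was at -0.58 (adjusted p = 0.028). Pdha1, the catalytic subunit of pyruvate dehydrogenase, and its kinase Pdk2 fell by 0.41 and 0.44 (adjusted p = 0.018 and 0.0079). With the offsets Pdha1 still passed (-0.56, adjusted p = 0.045), while Pdk2 did not (-0.12, adjusted p = 0.38). Dld, a subunit shared by several dehydrogenases, rose by 0.31 (adjusted p = 0.023) but was at -0.23 with the offsets. The shuttles that carry electrons of NADH into mitochondria had 7 of 10 genes lower by edgeR's test (median -0.38), beside 12.8% of all genes. DESeq2's test also called 7 lower, beside 7.11% of all genes, and by either test 3 did not pass. By edgeR Gpd1 fell by 0.59, Mdh2 by 0.51, Mdh1 by 0.45 and the carrier Slc25a11 by 0.39. Got2 and Got1 fell by 0.37 and 0.29 (adjusted p of 0.0049 to 0.016 for all of these). With the offsets 1 of the 10 was lower, Mdh1 (-0.54, adjusted p = 0.036 by edgeR), beside 0.999% of all genes. The median was then -0.20. Gpd1 was at -0.25, Mdh2 at -0.26 and Slc25a11 at -0.12 in that fit. Got2 was at -0.16 and Got1 at -0.09, and these genes did not pass (adjusted p of 0.070 to 0.39).

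In the pentose phosphate pathway, which makes NADPH, 3 of 7 genes were lower, namely Pgls (-0.62), Pgd (-0.38) and Tkt (-0.35), and 1, Rpe (0.53), was higher. With the offsets Pgls was at -0.20, Pgd at -0.23 and Tkt at -0.08, and they did not pass (adjusted p of 0.23 to 0.57). Rpe was at 0.11 with the offsets (adjusted p = 0.68), and DESeq2's test called 0 genes of this list higher at an adjusted p under 0.05 and 1 at an unadjusted one. Of 3 tested genes of gluconeogenesis 2 were lower, pyruvate carboxylase Pcx by 0.53 and Pck2 by 0.50. With the offsets Pcx was at -0.20 and Pck2 at -0.26, and they did not pass (adjusted p = 0.19 and 0.14). In glycogen metabolism 1 of 9 was lower, the brain glycogen phosphorylase Pygb (-0.34, but -0.09 with the offsets, adjusted p = 0.38), and 1 was higher. The latter was Ugp2, which makes UDP-glucose, at 37.7 and 28.0 CPM in control mice and 66.1 and 61.0 CPM in surgery mice (log2 fold change 0.95, SE 0.143, adjusted p = 0.0067 by edgeR), and it was at 0.39 with the offsets (adjusted p = 0.15).

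**Figure D5:**
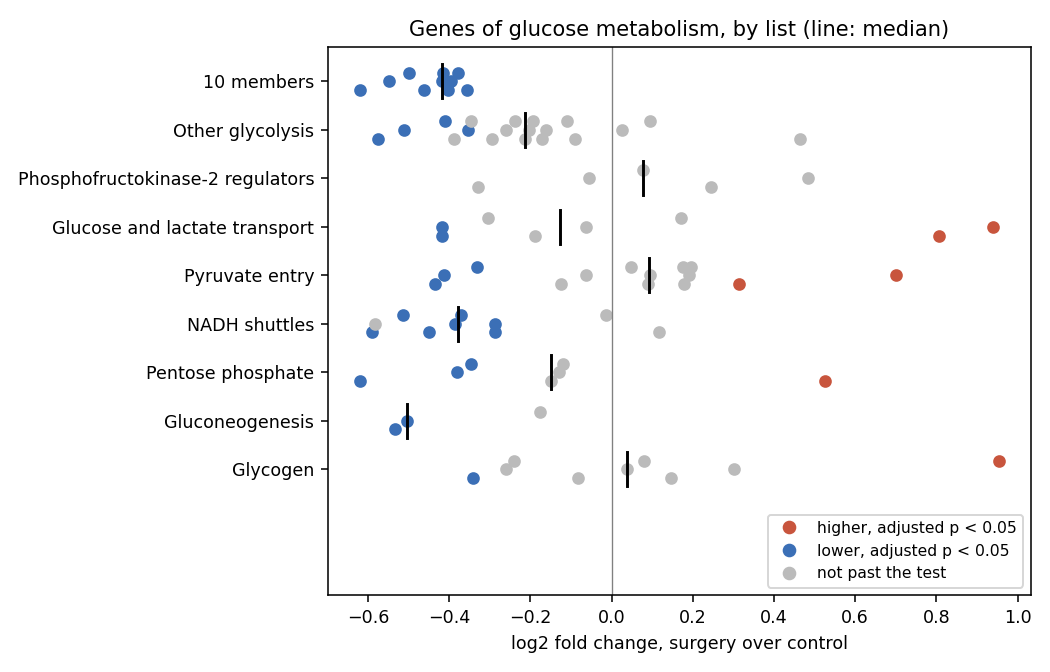
Log2 fold change, surgery over control, of the 10 enzymes and of 75 other genes of glucose metabolism by list. Each point is a gene, colored by its call at an adjusted p under 0.05, and black lines mark medians, from -0.50 for gluconeogenesis to 0.09 for pyruvate entry.

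Markers of the cell types of the tissue were read beside these values. Their counts stand against the shares over all genes, 12.8% lower and 13.1% higher by edgeR's test, and 7.11% and 5.81% by DESeq2's. The summed level of 8 neuron markers was 6972 and 6823 CPM in control mice and 6891 and 6607 CPM in surgery mice, with 2 markers higher and 2 lower. That of 8 astrocyte markers, without Aldoc, was 3793 and 3578 CPM in control mice and 4305 and 4083 CPM in surgery mice, with 3 higher and 1 lower by edgeR's test and 3 higher and 3 lower by DESeq2's. Slc1a2 carried the difference of that sum, and the other 7 markers summed to 1516 and 1424 CPM in control mice and to 1525 and 1457 CPM in surgery mice, which overlap. Microglia had 1 of 8 and endothelial cells 2 of 5 markers higher, and the others did not pass. The 7 oligodendrocyte markers summed to 6335 and 5468 CPM in control mice and to 6221 and 4030 CPM in surgery mice, surgery replicate 2 being the lowest. Of these markers 0 passed in either direction by edgeR or by DESeq2, with 0 at an unadjusted p under 0.05 by edgeR and 1 lower by DESeq2. Nuclear-retained RNAs summed to 7828 and 7669 CPM in control mice and to 8647 and 9827 CPM in surgery mice, with 2 of 5 higher and 1 lower. The 5 choroid plexus markers summed to 126 and 5387 CPM in control mice and 2021 and 3434 CPM in surgery mice, so control replicate 1 stood apart as low. Without that mouse all 10 enzymes were still lower at an adjusted p under 0.05, beside 9.62% of all genes. The 5 markers of hippocampal neurons were detected in every mouse, and 4 of them passed the test. Wfs1 (log2 fold change -0.70, adjusted p = 0.0085 by edgeR) and Fibcd1 (-0.64, adjusted p = 0.0043) were lower, both past the fold limit of 0.67. Zbtb20 (0.44, adjusted p = 0.012) and Neurod6 (0.53, adjusted p = 0.029) were higher, and Prox1 was at 0.43 (adjusted p = 0.054). With the offsets 0 of the 5 passed by edgeR, 4 having an unadjusted p under 0.05. Calls of the other marker lists also changed with the offsets. There 1 neuron marker (Snap25, -0.43, adjusted p = 0.045, and 0.01 without the offsets) was lower, and 1 astrocyte marker (Aqp4) and 1 nuclear RNA (Snhg11) were higher, while 0 microglia and 0 endothelial markers passed by edgeR, with 2 and 1 higher at an unadjusted p under 0.05. No listed marker was at 0 in every mouse, and the part of any cell type in the lower enzyme levels was not tested.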

How the data were processed

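Hippocampal RNA of 4 mice, 2 control and 2 surgery, was analyzed from the deposited raw counts per gene. The authors enriched polyadenylated RNA with oligo(dT) beads, sequenced paired ends and mapped them to mm10 with HISAT. The counting program and its use of strand are not given in the sources used here, and the submitters' processing notes list HISAT2 2.1.0, Bowtie2 2.2.3, TopHat2 and HTSeq 0.6.0 without a role. The mean, fold change and p-value columns of the authors' own comparison were not used.

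Genes passing filterByExpr (minimum count 10) were normalized with TMM factors. The test was edgeR's quasi-likelihood F test (version 4.0.16, R 4.3.3) with adjustment by Benjamini and Hochberg over all 17144 genes. A gene was called at an adjusted p under 0.05, and the fold limits were 1.5 and 0.67. CPM was computed from the counts and TMM factors. Exon lengths, GC contents, overlaps and shared 75-nucleotide windows were taken from GENCODE M21, in which 29238 identifiers were found and 93.2% of these had the same coordinates. For the offsets, mgcv 1.9.3 fitted smooth curves (basis size 8) of count on length and GC content over 17120 genes. Isozyme ratios were compared by exact permutation. Alternatives were DESeq2 1.42.0, other scalings, no filter, the replicate number as a block, offsets, added pseudogene copies and leaving out each mouse. The test was checked on simulated data.

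The members and lists were chosen with earlier results of these data known. All members were named, with the tested isozymes of their steps, the tested enzymes of steps without a member and, in other lists, up to 6 called genes of at least 1 CPM by size of change. Some genes that this rule names are not reported here. Replicates of a group differed by more than sampling noise (chi-square per degree of freedom 13.4 and 8.45). The p-values rest only on the spread between these mice, which edgeR's test estimates for each gene with information shared over genes.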

Additional observations from a re-analysis of the deposited data

How the results depend on the processing

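All 10 enzymes had a negative log2 fold change under all 12 alternatives, and 108 of 120 values for a single enzyme kept their side of the threshold. The exceptions all came with the length and GC offsets, which left 1 enzyme lower, a median of -0.19, none past the fold limit, and 4 of the other genes of glucose metabolism called. In that fit 236 genes of all were higher and 171 lower, so fewer genes passed throughout. The count past the fold limit of 0.67, which was 1, was 0 with library totals only and 0 with pseudogene copies added, and leaving out 1 mouse gave 0 (without control replicate 2) to 3 (without control replicate 1, Gapdh, Ldhb and Aldoc), with 2 without surgery replicate 1. Leaving out 1 mouse gave a median of -0.47 to -0.38 and 16 to 26 called genes of the lists, with all 10 enzymes lower each time, in fits where 6.75% to 11.6% of all genes were lower. The cause of these shifts was not tested.

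The replicate numbers of the groups are shared in name only, since no label ties them to a litter or day, and the deviations of same-numbered mice correlated at 0.218. With the number as a block, 10 enzymes were lower, 1 was past the fold limit and 30 genes of the lists were called, with 2653 genes higher and 2626 lower over all genes, compared with 2249 and 2201. With the block and the offsets together 7 enzymes were lower, not Gpi1, Pfkm and Aldoa, beside 6.17% of all genes lower and 8.4% higher, none (0) was past the fold limit, the median was -0.19 and 15 genes of the lists were called. Scaling by library totals gave 2649 genes higher and 1810 lower over all genes. With 2 mice per group an exact test of a single value cannot pass 0.05.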
